A study of Mus musculus with 6 samples.

Results

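The genes described here are 38 genes of the cell cycle and of DNA replication, taken by symbol from a table of 45777 mouse genes in which all 38 were found. They comprise 13 replication genes, 15 mitosis genes and 10 genes for cyclins, cyclin-dependent kinases (CDKs) and E2F transcription factors that act before DNA synthesis. RNA was sequenced from 6 samples of cultured neurons of the dorsal root ganglion (DRG), which carry touch, pain and other sensation to the spinal cord. Every sample came, per the labels, from wild-type C57BL/6 mice that were adult (8 weeks) and female. The control group of 3 samples was given PBS, and the other 3 were given oncomodulin (ONCM) as recombinant protein for 12 hours, at a dose of 100 ng/ml. Oncomodulin is a calcium-binding protein that immune cells can secrete. The samples are called biological replicates, but separate cultures or animals are not named, so the p-values measure only the spread between these samples, which may be technical. The question was which transcripts differ between the samples with and without oncomodulin.

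A cell that divides first raises the D cyclins, which with Cdk4 and Cdk6 inactivate the retinoblastoma protein and free the E2F factors. E2F then drives the genes that load the Mcm helicase on DNA, make nucleotides and copy the genome, and later factors drive the mitosis genes that condense, attach and part the chromosomes. Adult sensory neurons have left the cycle for good, whereas Schwann cells, satellite glia, fibroblasts, macrophages and endothelial cells of the ganglion can divide. In such neurons several of these genes also have roles outside division, such as DNA repair.

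Library totals ran from 53770820 to 64477014 counts, and 3 counts in a library corresponded to between 0.0464 and 0.0558 CPM (counts relative to library size, with TMM scaling), a floor that covers counting error only. Sensory neuron markers (12 genes) were abundant, summing to between 17430 and 18115 CPM with PBS and between 15318 and 16220 CPM with ONCM. Of these 9 fell, 2 (Prph and Avil) did not pass, and 1 (Tubb3) rose, from 2074 to 3618 CPM. Markers of dividing-capable cells were present too. Schwann cell markers (12 genes) summed to 5071 ± 1.27 and 4986 ± 89.95 CPM (mean ± SD, n = 3 per group), satellite glia markers (9 genes) to 2064 and 2122 CPM, and fibroblast markers (10 genes) to 338 and 474 CPM, in the order PBS and ONCM. Of the fibroblast markers 5 rose, 1 (Pdgfrb) fell and 4 did not pass. Dcn, which alone went from 144 to 255 CPM, made up most of the difference in their sum. Endothelial markers (8 genes) summed to 159 and 183 CPM. Macrophage markers (15 genes) differed most, from 46.2 to 51.2 CPM in the PBS libraries and from 173 to 179.8 CPM in the ONCM libraries, and 14 of the 15 rose. Lymphocyte and neutrophil markers (11 genes) summed to 3.29 and 4.88 CPM. Of the 6 tested, 2 rose: Ly6g, a neutrophil marker, from 0.136 to 1.88 CPM (13.7-fold, edgeR adjusted p = 1.38e-09), and Cd8a of T cells from 0.141 to 0.415 CPM (2.94-fold, edgeR adjusted p = 0.0129). The groups of Cd8a overlapped, on 5 to 35 counts in a library. S100a8 and S100a9 of neutrophils did not pass, at log2 -0.72 and -0.62, Ms4a1 was at 0 in the PBS libraries and Nkg7 at 0 in the ONCM libraries. The labels give female for all samples. Yet Ddx3y of chromosome Y ranged from 58.1 to 62.4 CPM in PBS libraries and from 15.1 to 16.9 CPM in ONCM libraries. Kdm5d, Eif2s3y and Uty of chromosome Y averaged 18.4, 28.8 and 16.9 CPM with PBS. With ONCM they averaged 5.79, 10.3 and 5.22 CPM. Transcripts of chromosome Y were thus present in both groups, against the female label. Xist, the RNA of the inactive X chromosome, ranged from 0.485 to 0.588 CPM in PBS libraries and from 413 to 513 CPM in ONCM libraries. Treatment and source of the cells therefore cannot be told apart for any gene below, since no library of either group resembled the other group in these transcripts. No member lies on chromosome X, Y or MT.

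Of the 37 members that passed the filter on low counts, 13 rose, 6 fell and 18 did not pass the test (edgeR's quasi-likelihood test, Benjamini-Hochberg adjusted p under 0.05 over all 20354 tested genes). Among all tested genes 48.3% passed, 23.9% upward and 24.4% downward, so the 51.4% of members called was near the background. The split by direction was 35.1% upward and 16.2% downward. The groups did not overlap for 23 members (62.2% of those tested), against 55.6% of all tested genes. Of these members 16 were higher with ONCM, where 27.6% of all tested genes were without overlap and higher with ONCM. The members' median log2 fold change was 0.24, beside 0.00 over all tested genes. On the authors' TPM values, which are scaled by transcript length (log2(TPM + 1), limma), 8 members rose and 6 fell, and the share of all calls that were rises was 39.2% there against 49.5% on counts. Since these are bulk libraries, fewer cells of a type and less RNA per cell cannot be told apart.

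Levels differed widely between the roles. Per length, the median member level was 7.16 TPM for the replication genes and 0.551 TPM for the mitosis genes, beside 8.35 TPM for all tested genes. Pcna and Cdk4 were the most abundant members at 130 TPM each, and Ccnd1 followed at 111 TPM. At the other end, 11 of the 15 mitosis genes were under 1 TPM, and only 2 of the 13 replication genes were. Transcripts of the replication machinery were thus near the level of a typical tested gene, and those of the mitotic machinery far below it. Counts were few at that level, and 13 members had fewer than 100 counts in every library.

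**Figure D1:**
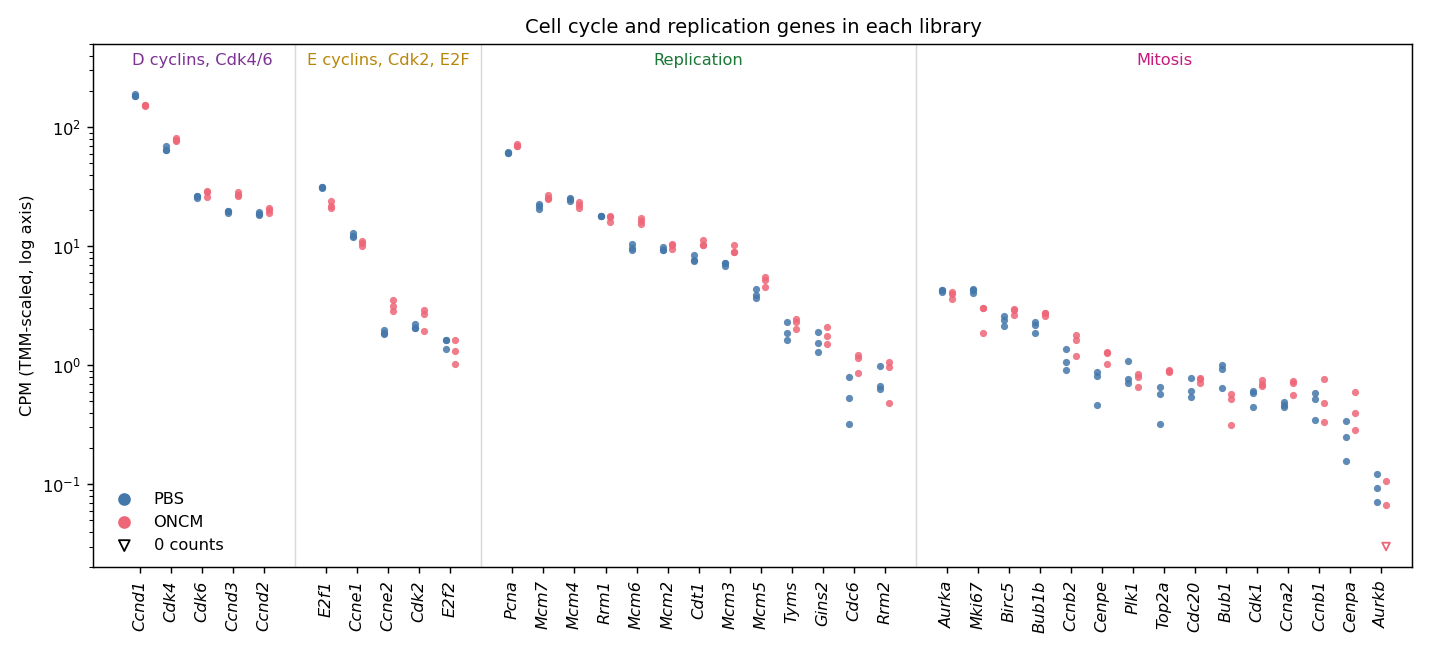
Level of each member in each library, in TMM-scaled CPM on a log axis, with the members grouped by role and ordered by mean level; blue points are the 3 PBS libraries, red points the 3 ONCM libraries and an open triangle is a library with 0 counts. The mitosis genes lie at or below 4.36 CPM in every library, while Pcna lies at 60.5 CPM or above.

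Of the 13 replication genes 7 rose and 1 fell, 5 did not pass, and the median log2 fold change was 0.22. That is 53.8% upward against the background of 23.9%, and 7.69% downward against 24.4%. The genes that rose were Mcm3, Mcm5, Mcm6 and Mcm7 of the replicative helicase, the loading factors Cdt1 and Cdc6, and Pcna, the sliding clamp of the DNA polymerases. Their sizes ran from 1.15-fold for Pcna to 1.96-fold for Cdc6. On log2(TPM + 1), 5 replication members rose and 1 fell. The 43 other replication genes described below did not share the tilt, with 14.0% raised, 20.9% lowered and a median log2 fold change of 0.00. Summed over the 13 genes, the level was 166.5 to 171 CPM with PBS and 189 to 199 CPM with ONCM, without overlap, in the same libraries in which macrophage markers went from 49.5 to 177 CPM. The part of macrophages in these rises was not tested.

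Mcm6 (chromosome 1, 128331575 to 128359705) changed most among the helicase subunits. It was at 9.31, 9.60 and 10.5 CPM in the PBS libraries and at 16.3, 15.4 and 17.4 CPM in the ONCM libraries. The lowest ONCM library stood well above the highest PBS library, and the fold change was 1.67 (log2 0.74, SE 0.07, edgeR adjusted p = 7.78e-08). Mcm3 (chromosome 1, 20802966 to 20820312) had 7.28, 6.83 and 7.20 CPM with PBS and 8.91, 9.03 and 10.3 CPM with ONCM (log2 0.41, SE 0.08, edgeR adjusted p = 0.000478). Mcm7 went from 20.5, 21.8 and 22.7 CPM to 25.7, 25.0 and 27.1 CPM (log2 0.26, SE 0.05). Its exons share 7.25% of their bases with Ap4m1 on the opposite strand (log2 -0.14, not passing) and a few with Cops6, which rose by 0.20 on the log2 scale. Without a stated strand setting, reads in shared bases cannot be divided. Mcm5 rose less surely, from 3.91, 4.34 and 3.70 CPM to 5.19, 4.51 and 5.50 CPM (log2 0.35, SE 0.11, edgeR adjusted p = 0.0142).

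The 6 subunits Mcm2 to Mcm7 form 1 ring-shaped helicase, yet their transcripts did not shift by the same amount. Mcm2 stood at 9.49 ± 0.374 and 9.96 ± 0.507 CPM and did not pass (log2 0.07, SE 0.07), and its groups overlapped. Mcm4 (chromosome 16, 15623897 to 15637400) fell slightly, from 25.3, 23.8 and 24.8 CPM with PBS to 22.1, 21 and 23.6 CPM with ONCM (log2 -0.15, SE 0.06, edgeR adjusted p = 0.0328). The highest ONCM library lay just under the lowest PBS library. Taken per length, Mcm6 was 0.436 to 0.499 times the level of Mcm4 in the PBS libraries and 0.776 to 0.866 times in the ONCM libraries, a pair picked after its values were seen and given without a test. The Mcm4 call was lost without PBS replicate 1 (log2 -0.13, adjusted p = 0.107), PBS replicate 3 (-0.15, 0.0658), ONCM replicate 1 (-0.15, 0.0723) or ONCM replicate 2 (-0.11, 0.161), and in DESeq2 (-0.14, 0.0598). The Mcm5 call was lost without PBS replicate 3 (0.29, 0.0669) or ONCM replicate 3 (0.28, 0.0623) and on log2(TPM + 1) (0.22, 0.0729).

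Cdt1 and Cdc6 bring the Mcm ring to replication origins. Cdt1 (chromosome 8, 122568015 to 122573130) was at 7.70, 7.56 and 8.46 CPM with PBS and 10.2, 10.2 and 11.4 CPM with ONCM, a rise of 1.34-fold (log2 0.42, SE 0.08, edgeR adjusted p = 0.000217). Cdc6 was far scarcer, with 18 to 69 counts in a library. It stood at 0.526, 0.322 and 0.796 CPM with PBS and 0.855, 1.15 and 1.22 CPM with ONCM (log2 0.97, SE 0.28, edgeR adjusted p = 0.00808). The groups of Cdc6 were separated by a narrow margin, and its rise did not pass on log2(TPM + 1) (0.28, adjusted p = 0.0798). Gins2, a subunit of the GINS complex that activates the helicase, went from 1.57 ± 0.295 to 1.79 ± 0.282 CPM and did not pass (log2 0.18, SE 0.18). In Gins2 67.3% of exonic bases overlap exons of Gse1 on the opposite strand, so its value is uncertain.

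Pcna (chromosome 2, 132249286 to 132253180) was at 60.5, 62.5 and 60.9 CPM with PBS and 69.3, 72.3 and 69.4 CPM with ONCM. All ONCM libraries were above all PBS libraries, by a small amount that the counts nevertheless resolved (log2 0.20, SE 0.04, edgeR adjusted p = 0.000147). A Pcna pseudogene, Pcna-ps2, had 151 to 183 counts per library and did not pass (log2 -0.04), beside 3494 to 4343 counts for Pcna, and reads of these similar copies may be split. The members that supply nucleotides did not pass, whereas Dut, a gene of that supply outside the members, fell (below). Rrm1, the large subunit of ribonucleotide reductase, was at 17.9 ± 0.0957 and 17.2 ± 1.10 CPM (log2 -0.06, SE 0.06). Rrm2, its small subunit that is usually made in S phase, was at 0.759 ± 0.198 and 0.839 ± 0.312 CPM (log2 0.15, SE 0.28). Tyms, thymidylate synthase, was at 1.93 ± 0.344 and 2.25 ± 0.214 CPM (log2 0.22, SE 0.16). For Rrm2, with 27 to 64 counts in a library, a change of the size of that of Cdt1 was not detectable at this depth.

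Promoter windows from RefSeq (GRCm38.p6, 250 bases before to 50 after a start) were found for 31 of the 38 members, 11 of them replication genes. Short words bound by E2F (TTTCGCGC, TTTGGCGC, TTTCCCGC and GCGGGAA, searched on both strands, the last of them lying within the reverse complement of the third) occurred in 7 of the 11 replication genes (63.6%). Over all 27025 genes with a window the share was 6.10%, and in the mitosis genes it was 1 of 13 (7.69%). Among the other replication genes described below, of which 6 rose and 9 fell, 19 of 35 with a window held such a word (54.3%). Among the replication genes, windows with an E2F word belonged to Mcm3, Mcm5, Mcm6, Mcm7, Cdt1 and Cdc6, which rose, and to Rrm1, which did not pass. Outside the replication genes, the members with such a word were Cdk1, Cdk2 and E2f2, and none of them passed. The windows of Pcna, which rose, and of Mcm2, Rrm2 and Tyms, which did not pass, held none of these letters. Nor did that of E2f1, and such an absence says nothing of the factor. That of E2f1 (154569377 to 154569676, minus strand) lies wholly inside the gene's span, which reaches 154569892. A pair is shown because Mcm6 and Cdc6 had the largest rises of the group. The 250 bases before each start are printed 5′ to 3′ on the gene's strand, with E2F words and the NF-Y word CCAAT in capitals (words on the opposite strand appear as their reverse complement, ATTGG for CCAAT). For Mcm6 they are chr1:128359706-128359955, minus strand, and for Cdc6 chr11:98907901-98908150, plus strand. The Cdc6 stretch lies inside the gene's span (98907709 to 98923942), so the start used for it is an internal one and the stretch is not upstream of the gene.
Mcm6: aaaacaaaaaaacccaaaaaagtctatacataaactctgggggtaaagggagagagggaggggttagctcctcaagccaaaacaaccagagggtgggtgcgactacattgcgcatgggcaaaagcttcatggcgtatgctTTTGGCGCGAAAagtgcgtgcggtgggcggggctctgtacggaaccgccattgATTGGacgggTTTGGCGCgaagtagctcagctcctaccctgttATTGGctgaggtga
Cdc6: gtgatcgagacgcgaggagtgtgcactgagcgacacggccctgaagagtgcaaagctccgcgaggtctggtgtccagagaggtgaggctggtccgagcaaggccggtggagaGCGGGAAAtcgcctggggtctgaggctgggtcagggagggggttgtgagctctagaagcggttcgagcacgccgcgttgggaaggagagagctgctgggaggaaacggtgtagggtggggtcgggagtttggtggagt
Mcm6 holds 3 E2F matches, of which a pair overlap in the run that begins 110 bases before the start, and 2 NF-Y matches. Cdc6 holds 1 run of capitals, the reverse complement of TTTCCCGC with GCGGGAA inside it, which begins 138 bases before the start, and no NF-Y match.

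**Figure D2:**
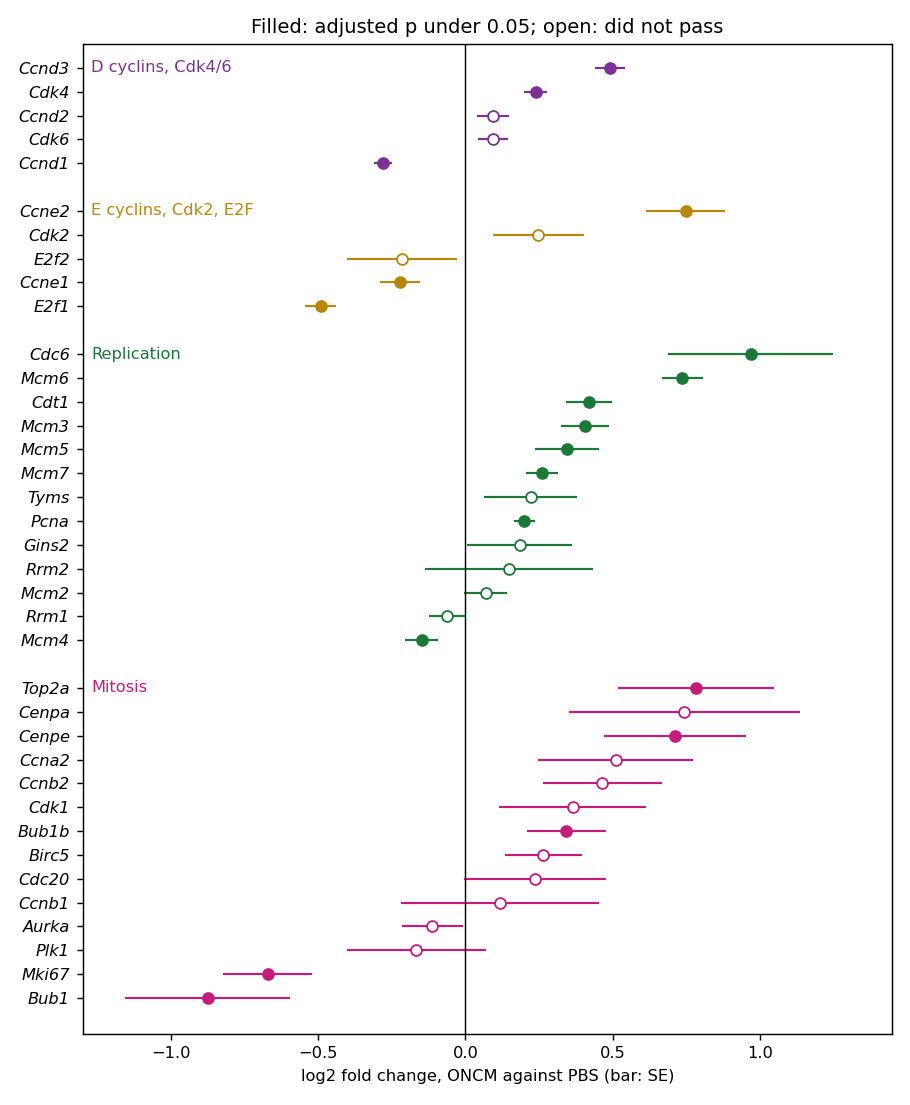
Log2 fold change of ONCM against PBS for the 37 tested members, with bars for the SE, grouped by role; filled points passed (edgeR adjusted p under 0.05) and open points did not. Replication genes lie mostly to the right with short bars, whereas the mitosis genes spread from -0.88 for Bub1 to 0.78 for Top2a with long bars.

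The mitosis genes were scarce and mixed in direction: of 14 tested, 3 rose, 2 fell and 9 did not pass. That is 21.4% upward and 14.3% downward, against 23.9% and 24.4% of all tested genes. Their median log2 fold change was 0.30, with 10 of 14 higher in ONCM, but the median SE was 0.24, against 0.08 for the replication genes and 0.08 for all tested genes. Summed over the 15 genes the level was 19.2 to 19.7 CPM with PBS and 19.1 to 20.7 CPM with ONCM, and the groups overlapped. Macrophage markers, at 49.5 and 177 CPM, differed between the same libraries, and their part was not tested.

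Mki67 and Top2a, the most used markers of dividing cells, went in opposite directions. Mki67 (chromosome 7, 135689784 to 135716450), whose protein coats mitotic chromosomes, was at 4.25, 4.02 and 4.36 CPM with PBS and 3.05, 3.01 and 1.86 CPM with ONCM. It fell 1.59-fold (log2 -0.67, SE 0.15, edgeR adjusted p = 0.00112), and ONCM replicate 3 was the lowest. Top2a (chromosome 11, 98992947 to 99024199), the topoisomerase that untangles sister chromatids, was at 0.572, 0.322 and 0.658 CPM with PBS and 0.893, 0.916 and 0.878 CPM with ONCM. The ONCM libraries were close together and above all PBS libraries (log2 0.78, SE 0.26, edgeR adjusted p = 0.0203), on 18 to 55 counts. Per length, Mki67 was 3.70 to 6.61 times Top2a with PBS and 1.11 to 1.79 times with ONCM. This pair too was picked after its values were seen, and the ratio is given without a test. The Top2a call was lost without PBS replicate 2 (0.54, adjusted p = 0.0993) or ONCM replicate 2 (0.77, 0.0569) and on log2(TPM + 1) (0.18, 0.0582).

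The spindle checkpoint kinases Bub1 and Bub1b also parted. Bub1 (chromosome 2, 127800197 to 127831859) was at 1.01, 0.930 and 0.640 CPM with PBS and 0.576, 0.316 and 0.519 CPM with ONCM, so all ONCM libraries were lower (log2 -0.88, SE 0.28, edgeR adjusted p = 0.0154). Bub1b, the BubR1 protein of the same checkpoint, was at 2.32, 2.20 and 1.87 CPM with PBS and 2.77, 2.77 and 2.58 CPM with ONCM (log2 0.34, SE 0.13, edgeR adjusted p = 0.0435). Cenpe, a kinetochore motor, rose from 0.820, 0.465 and 0.882 CPM to 1.26, 1.28 and 1.02 CPM (log2 0.71, SE 0.24, edgeR adjusted p = 0.0205). Each of these 3 calls depended on single libraries. Bub1 was lost without PBS replicate 1 (-0.75, adjusted p = 0.0737), PBS replicate 2 (-0.82, 0.0529) or ONCM replicate 2 (-0.65, 0.0857). Bub1b was lost without PBS replicate 2 (0.36, 0.0748), PBS replicate 3 (0.25, 0.169), ONCM replicate 1 (0.33, 0.101) or ONCM replicate 2 (0.33, 0.104), in DESeq2 (0.35, 0.0965), with no filter on low counts (0.34, 0.0679) and on log2(TPM + 1) (0.18, 0.142). Cenpe was lost without PBS replicate 2 (0.48, 0.102), ONCM replicate 1 (0.67, 0.0628) or ONCM replicate 2 (0.65, 0.0742) and on log2(TPM + 1) (0.15, 0.111). Over the mitosis genes, leaving out ONCM replicate 2 left 1 passing and 0 raised, leaving out PBS replicate 2 left 2 passing, and leaving out ONCM replicate 1 left 3.

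The kinase that starts mitosis and its cyclins were scarce but above the floor of 3 counts. Cdk1 was at 0.588, 0.608 and 0.450 CPM with PBS and 0.669, 0.700 and 0.752 CPM with ONCM, on 26 to 42 counts. Its groups did not overlap, yet the difference did not pass (log2 0.36, SE 0.25, edgeR adjusted p = 0.251). Ccna2, the cyclin of S phase and early mitosis, was at 0.470 ± 0.0229 and 0.669 ± 0.0971 CPM (log2 0.51, SE 0.26), and 12.5% of its exonic bases overlap Exosc9 on the opposite strand. The B cyclins Ccnb1 and Ccnb2, the partners of Cdk1, had log2 fold changes of 0.12 (SE 0.34) and 0.47 (SE 0.20), and neither passed. Ccnb2 did pass without PBS replicate 2 (0.62, adjusted p = 0.036) or ONCM replicate 3 (0.61, 0.0229), and with a filter of a mean of at least 1 CPM (0.48, 0.0455).

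The remaining mitosis genes did not pass either. Aurka, a kinase of the spindle poles, had the highest mean CPM of the mitosis genes. Its PBS libraries held 4.27, 4.31 and 4.12 CPM, and its ONCM libraries 3.63, 4.11 and 3.99 CPM (log2 -0.11, SE 0.10). Birc5, survivin of the chromosomal passenger complex, was at 2.37 ± 0.247 and 2.84 ± 0.169 CPM (log2 0.26, SE 0.13). In both genes the groups did not overlap. Plk1, a mitotic kinase, had -0.17 (SE 0.24), Cdc20, an activator of the anaphase-promoting complex, 0.24 (SE 0.24), and Cenpa, the centromeric histone, 0.74 (SE 0.39), as log2 fold changes. Aurkb, the catalytic subunit of the passenger complex, had at most 7 counts in a library and was not tested. It was at 0 in ONCM replicate 1, so that no fold is given.

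Windows of the mitosis genes carried other words. The CHR word (cell cycle genes homology region, TTTGAA or TTTAAA on either strand) together with CCAAT occurred in 11 of 13 mitosis genes (84.6%), in 3 of 11 replication genes (27.3%) and in 12.2% of all genes with a window. Among the other mitosis genes described below, of which 8 rose and 9 fell, 26 of 42 with a window held both (61.9%). Top2a, which rose, and Mki67, which fell, both hold this combination, and are shown for that reason, with CHR words and NF-Y words in capitals as before (TTCAAA is TTTGAA on the opposite strand). Both lie on the minus strand, at chr11:99024190-99024439 for Top2a and chr7:135716380-135716629 for Mki67. The spans of these genes reach 99024199 and 135716450, so the last bases of each stretch lie inside them.
Top2a: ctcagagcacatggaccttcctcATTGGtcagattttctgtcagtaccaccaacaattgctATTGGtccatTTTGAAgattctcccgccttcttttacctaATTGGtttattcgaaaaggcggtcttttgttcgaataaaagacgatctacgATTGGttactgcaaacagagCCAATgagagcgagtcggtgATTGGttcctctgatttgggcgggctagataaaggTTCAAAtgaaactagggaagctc
Mki67: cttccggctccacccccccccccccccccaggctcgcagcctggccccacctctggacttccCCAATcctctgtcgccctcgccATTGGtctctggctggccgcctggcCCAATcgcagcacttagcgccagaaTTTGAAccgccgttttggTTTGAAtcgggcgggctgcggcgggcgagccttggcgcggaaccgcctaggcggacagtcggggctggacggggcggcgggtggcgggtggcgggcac
Top2a has 2 CHR matches and 6 NF-Y matches in these 250 bases, and Mki67 has 2 and 3. The base composition differs as well, at 43.6% G and C in Top2a and 71.6% in Mki67. The window of Bub1, the other mitosis gene that fell, held CCAAT but no CHR word.

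**Figure D3:**
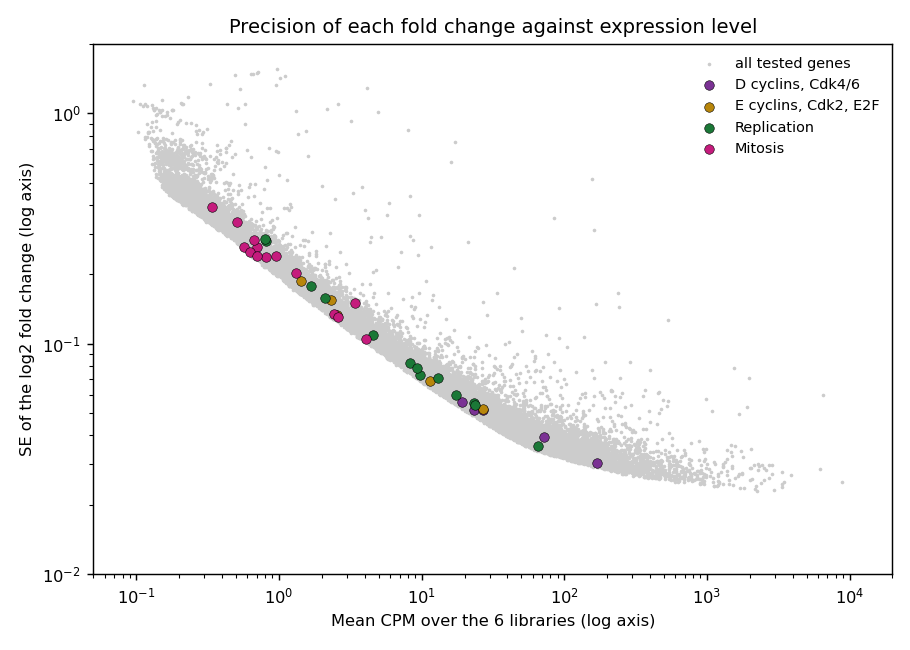
SE of the log2 fold change against mean CPM over the 6 libraries, both on log axes, with all tested genes in grey and the members coloured by role. Members follow the same course as all tested genes, and most of the mitosis genes sit at the scarce, imprecise end with an SE above 0.2.

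Of the 10 cyclin, CDK and E2F genes 3 rose and 3 fell, 4 did not pass, and there was a median log2 fold change of 0.09. The shares of 30.0% upward and 30.0% downward stood beside 23.9% and 24.4% of all tested genes. Within the D cyclins and again within the E cyclins, members of the same family moved against each other. Ccnd1 (chromosome 7, 144929931 to 144939831), by far the most abundant D cyclin transcript here, was at 184, 189.6 and 183 CPM with PBS and 150.1, 154 and 154 CPM with ONCM. It fell 1.21-fold (log2 -0.28, SE 0.03, edgeR adjusted p = 3.91e-07). Ccnd3 (chromosome 17, 47505051 to 47599689) rose 1.41-fold, from 19.0, 19.9 and 19.6 CPM to 28.5, 27.1 and 26.5 CPM (log2 0.49, SE 0.05, edgeR adjusted p = 2.46e-07). In each gene the groups were far apart compared with the spread of their libraries. Per length, Ccnd1 exceeded Ccnd3 by 4.83 to 5.02 times with PBS and by 2.73 to 3.01 times with ONCM, a pair likewise picked after its values were seen. Ccnd2 overlapped between groups and did not pass, with 18.4, 18.5 and 19.2 CPM in PBS libraries and 20.8, 20.1 and 19.0 CPM in ONCM libraries (log2 0.09, SE 0.06). Exons of Ccnd3 share 4.11% of their bases with the opposite-strand gene Bysl, which rose by 0.17 on the log2 scale.

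Cdk4, the kinase partner of the D cyclins (chromosome 10, 127063535 to 127067288), was at 64.7, 64.6 and 69.5 CPM with PBS and 81.0, 77.5 and 76.2 CPM with ONCM (log2 0.24, SE 0.04, edgeR adjusted p = 6.06e-05). The groups did not overlap. Its relative Cdk6 was at 26.1 ± 0.485 and 27.8 ± 1.58 CPM, did not pass (log2 0.09, SE 0.05), and passed only without ONCM replicate 3 (0.14, adjusted p = 0.0262). Exons of Cdk4 and of Ccnd1 share 19.7% and 23.4% of their bases with opposite-strand neighbours, Tspan31 and Lto1, which did not pass at log2 -0.09 and -0.06.

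The E cyclins, which switch on Cdk2 at the start of S phase, split as the D cyclins did. Ccne1 fell by a small margin, from 11.9, 12.2 and 13 CPM to 10.1, 10.6 and 11.1 CPM (log2 -0.22, SE 0.07, edgeR adjusted p = 0.0125). Ccne2 rose 1.68-fold, from 1.99, 1.86 and 1.82 CPM to 3.53, 3.16 and 2.85 CPM (log2 0.75, SE 0.13, edgeR adjusted p = 0.000139). The ratio of Ccne1 to Ccne2 per length, also a pair picked after its values were seen, was 9.37 to 11.2 with PBS and 4.42 to 6.13 with ONCM. Of the exonic bases of Ccne2, 17.4% overlap Ints8 on the opposite strand, which did not pass (log2 -0.09). The Ccne1 call was lost without PBS replicate 3 (-0.19, adjusted p = 0.0534) or ONCM replicate 1 (-0.19, 0.0536). Cdk2 itself was at 2.06, 2.22 and 2.06 CPM with PBS and 2.90, 1.95 and 2.69 CPM with ONCM, and these overlapped (log2 0.25, SE 0.15), although it passed without ONCM replicate 2 (0.40, adjusted p = 0.0357).

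E2f1 (chromosome 2, 154559400 to 154569892), an activating E2F whose known targets include the Mcm genes, was at 30.9, 31.7 and 31.3 CPM with PBS and 21.9, 21.1 and 23.8 CPM with ONCM. It fell 1.41-fold (log2 -0.49, SE 0.05, edgeR adjusted p = 3.06e-07), in the libraries in which 7 replication genes rose. E2f2, another activating E2F, was at 1.54 ± 0.149 and 1.33 ± 0.302 CPM and did not pass (log2 -0.22, SE 0.19). E2f1, Ccnd1 and Mki67, which fell, kept their direction and their call in all 15 alternatives tried. So did Ccnd3, Cdk4, Ccne2, Mcm3, Mcm6, Mcm7, Cdt1 and Pcna, which rose.

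The wider replication machinery was also examined. Of 43 other replication genes, all tested, 6 were raised, 9 lowered and 28 did not pass, with a median log2 fold change of 0.00. That is 34.9% called (14.0% raised, 20.9% lowered), below the 48.3% of all tested genes. Rpa1, the large subunit of the single-strand DNA binding protein RPA, was at 94.4, 94.0 and 96.2 CPM with PBS and 59.5, 57.4 and 59.2 CPM with ONCM (log2 -0.69, SE 0.03, edgeR adjusted p = 8.7e-12). Dut, an enzyme of thymidine nucleotide supply, fell from 14.6 ± 0.601 to 9.32 ± 0.762 CPM. Gins3, a partner of Gins2 in GINS, fell from 5.78 ± 0.655 to 3.71 ± 0.207 CPM.

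Of 50 other mitosis genes 8 were raised, 9 lowered, 31 not passing and 2 not tested, with a median log2 fold change of 0.06. The 35.4% called was below the 48.3% of all tested genes. Prc1, which bundles spindle midzone microtubules (chromosome 7, 80294445 to 80316259), had a larger fold change than any member. It was at 4.48, 4.40 and 4.74 CPM with PBS and 17.7, 17.3 and 16.6 CPM with ONCM, a rise of 3.79-fold (log2 1.92, SE 0.07, edgeR adjusted p = 1.85e-13). Of its exonic bases 11.1% are shared with the opposite-strand gene Rccd1, which did not pass at log2 -0.27. The chromosome-bound kinesin Kif22 rose from 5.52 ± 0.860 to 10.1 ± 0.315 CPM, and the condensin subunit Smc2 from 3.38 ± 0.311 to 5.10 ± 0.171 CPM. Racgap1, a regulator of cytokinesis, fell from 16.2 ± 0.839 to 12.2 ± 0.692 CPM. The anaphase-promoting complex, which ends mitosis and is also active in neurons, had the smallest share of calls among these other lists, at 25.0%. Of its 16 genes 3 rose (Anapc4, Anapc15 and Cdc16, by 0.13, 0.19 and 0.11 on the log2 scale), Cdc27 fell by 0.14 on the log2 scale, and 12 did not pass. The rises of Anapc4, Anapc15 and Cdc16 did not pass on log2(TPM + 1) (0.069, 0.039 and 0.050, adjusted p = 0.127, 0.612 and 0.321, limma). That of Cdc16 was also lost with no filter on low counts (0.099, 0.0643) and without PBS replicate 2 (0.090, 0.131), PBS replicate 3 (0.085, 0.132), ONCM replicate 2 (0.11, 0.0731) or ONCM replicate 3 (0.094, 0.0627). Exons of Anapc15 share 38.4% of their bases with Tomt on the opposite strand.

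**Figure D4:**
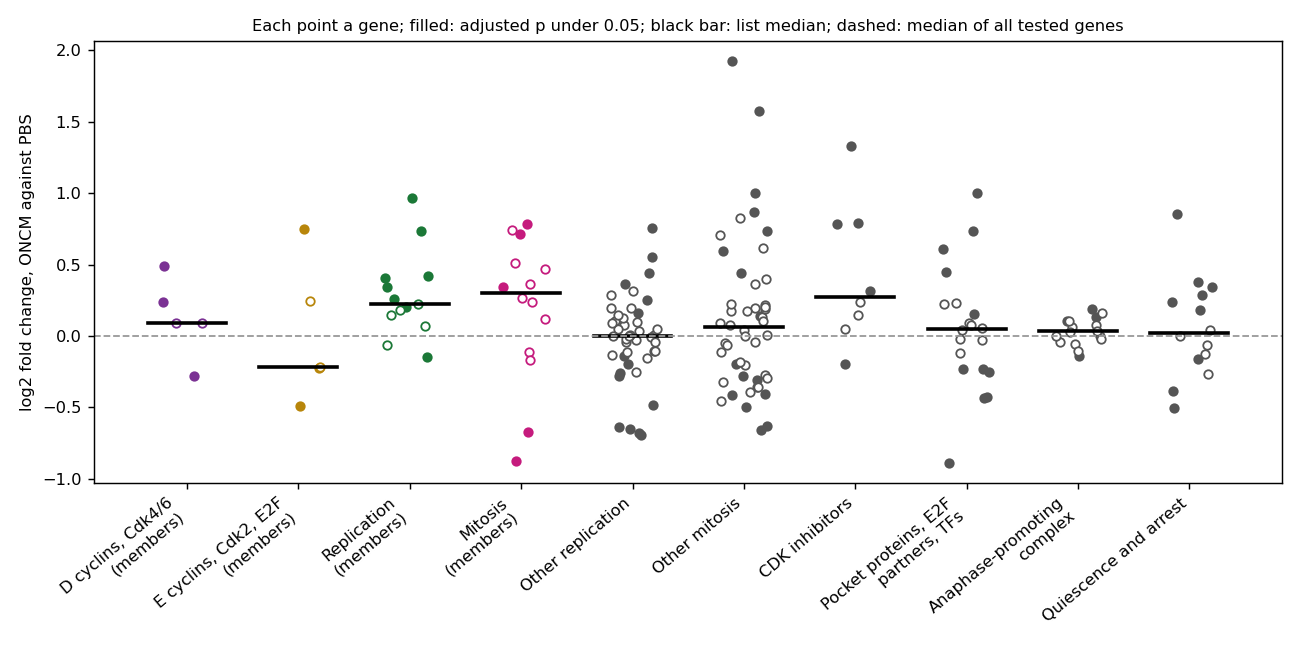
Log2 fold change of each tested gene by list, members in colour and other pathway genes in grey; filled points passed, black bars are list medians and the dashed line is the median of all tested genes. The members' replication list has its median at 0.22 while the list of other replication genes has it at 0.00, and Prc1 is the highest point at 1.92.

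Genes that brake the cycle were examined as well. Of 8 CDK inhibitor genes 4 were raised, 1 was lowered and 3 did not pass, which is 62.5% called beside 48.3% of all tested genes. The list summed to 315 to 331 CPM with PBS and 487 to 503 CPM with ONCM. Cdkn1a, which encodes p21 and is a target of p53, made up most of this sum. It was at 218, 231 and 233 CPM with PBS and 389, 386 and 398 CPM with ONCM, a rise of 1.72-fold (log2 0.78, SE 0.03, edgeR adjusted p = 4.38e-13). Cdkn3, a phosphatase that acts on CDKs, rose 2.51-fold from 2.75 ± 0.201 to 6.90 ± 0.728 CPM, and Cdkn2a rose from 0.949 ± 0.146 to 1.64 ± 0.0781 CPM. Cdkn1b, which encodes p27 and is a mark of quiescent cells, fell from 29.0 ± 0.856 to 25.3 ± 1.18 CPM. Among 14 quiescence and arrest genes 6 were raised, 3 lowered and 5 did not pass, or 64.3% called. Gadd45a, a stress-induced inhibitor of the cycle, rose 1.81-fold from 92.1 ± 1.53 to 166 ± 5.54 CPM, Btg1 and Trp53 rose 1.27-fold and 1.22-fold, and Plk3 fell 1.31-fold. Exons of Gadd45a share 19.1% of their bases with an opposite-strand transcript, E230016M11Rik, at 1.21 and 1.65 CPM.

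The pocket proteins, E2F partners and proliferation transcription factors gave 5 raised, 6 lowered, 9 not passing and 1 not tested of 21, and the 55.0% called was near the 48.3% of all tested genes. Rbl1, the p107 pocket protein that E2F itself induces, rose from 1.62 ± 0.282 to 2.70 ± 0.159 CPM. E2f6, a repressive E2F, fell from 58.7 ± 0.617 to 43.4 ± 0.890 CPM, and Tfdp2, a dimer partner of the E2F factors, from 25.3 ± 0.606 to 18.8 ± 1.37 CPM. Mybl1, a Myb-family factor, rose 1.52-fold. In these lists the macrophage marker sums of 49.5 and 177 CPM and the Xist levels named above moved with the groups, and their part was not tested.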

How the data were processed

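Gene-level RNA sequencing values of 6 samples (3 PBS, 3 ONCM) were used. The authors deposited raw read counts per gene, FPKM and TPM values in 1 table of 45777 genes. The counts were used for all tests, the deposited TPM values for levels between genes and as an alternative scale, and the deposited FPKM values were not used. The build is mm10, per the submitters' processing notes; the aligner, the counter and its strand mode, and the annotation were not given in the sources used here. Columns were matched to samples by the codes in the labels.

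Tests on the counts used edgeR 4.0.16 in R 4.3.3 (filterByExpr defaults, TMM, robust quasi-likelihood F-test, no covariate) over all 20354 genes kept, with Benjamini-Hochberg adjusted p under 0.05. Only genes past this threshold are said to rise or fall. The SE is the log2 fold change divided by the square root of F. No replicate pair agreed within sampling noise (chi-square per degree of freedom 2.76 to 7.09). The test was checked on simulated counts. Members and lists were chosen with earlier results of these data known. All members are named, and of each other list the up to 4 smallest p-values among genes with a mean of at least 1 CPM (1 gene that this names is not reported here). Coordinates and promoter windows come from RefSeq, GRCm38.p6 (the assembly of mm10), and exon overlaps from GENCODE for the same assembly. Alternatives used limma 3.58.1 and DESeq2 1.42.0.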

Additional observations from a re-analysis of the deposited data

How the results depend on the processing

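Of the 19 members that passed, 11 did so in the same direction in every alternative tried, and of the 18 that did not pass, 15 never did. Mitosis calls moved most. With a filter of at least 1 CPM on average, 3 mitosis members passed and 1 of them was lowered: Mki67, Bub1b and Ccnb2 passed, and Top2a, Bub1 and Cenpe were not tested. On log2(TPM + 1) and on log2(TPM + 0.1), 2 mitosis members passed and 0 were raised, and 8 of all members were raised. In the edgeR fit on counts 5 mitosis members passed, 3 raised and 2 lowered, and 13 of all members were raised. DESeq2 left 0 replication members lowered. Leaving out each library in turn gave 1 to 6 mitosis members passing, 0 to 4 raised and 1 to 2 lowered, and 0 to 1 replication members lowered. Over the same fits the log2 fold change ran from -0.26 to 0.37 for Ccnb1, from -0.28 to 0.032 for Plk1 and from -0.069 to 0.42 for Rrm2. The sign turned without PBS replicate 3 (-0.079) or ONCM replicate 3 (-0.26) for Ccnb1, without PBS replicate 3 for Plk1 and without ONCM replicate 2 for Rrm2, and none of these passed in any setting. With the replicate number as a block, 9597 genes passed against 9829, and the same count of 19 members. The numbers do not pair the samples: same-number correlations were -0.0453 to 0.00167, and 0 of 6 libraries correlated best with their own number. The cause of these shifts was not tested. At this depth 13 members had fewer than 100 counts in every library.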
